A study of Mus musculus with 4 samples.

Results

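Cadherins and protocadherins are the transmembrane adhesion proteins that hold cells of a tissue together and sort them from their neighbors. The genes described were chosen by name. They are the genes whose single symbol in the annotation of the array is Cdh, Pcdh or Pcdhb followed by a number, except *Cdh19*, *Cdh23* and *Pcdh15*. The rule gave 53 genes of 19938 measured genes with a symbol of their own, read by 56 of 35556 probe sets on the array. Of these genes, 21 are Cdh genes, 10 are non-clustered protocadherins and 22 belong to the beta cluster. The RNA of whole cochleas was compared at E15 between wild-type embryos and *Meis2* knockouts, which carry *Meis2* flox/flox and *Pax2* Cre/+, each group with 2 arrays. The wild-type samples are replicates 2 and 3 and the mutants replicates 1 and 2. *Pax2*-Cre deletes in the otic placode and the vesicle formed from it, whereas periotic mesenchyme, vessels and muscle, which whole tissue can also hold, do not arise from the placode. Neither the labels nor the methods say whether the arrays of a group came from separate embryos or pools, so p-values measure the spread between these arrays, which may be technical.

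Classical cadherins bind the same or a related cadherin on the next cell through their outer repeats, and their inner tail binds catenins, which tie the junction to actin. Type I cadherins include E-cadherin of epithelia and N-cadherin of neural and mesenchymal cells, and type II cadherins are used in many combinations in the nervous system and mesenchyme. Protocadherins have more repeats and no catenin-binding tail. The non-clustered genes, most of them of the delta-1 and delta-2 families, act in cell sorting, migration and axon guidance, and the clustered genes, which lie side by side and are each switched on in some neurons and not in others, give single neurons a surface identity. In the inner ear, E-cadherin and N-cadherin form junctions of the cochlear duct, and cadherins are also found in its mesenchyme, ganglion and vessels.

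Values are log2 signals that the authors computed with robust microarray analysis (RMA), and each difference is mutant minus wild type on that log2 scale. Each was tested with limma, which fits a linear model per probe set and borrows information on its spread from the others. A gene passed at an adjusted p below 0.05, with the adjustment made over the whole array. Over all 19938 genes, 40.4 percent passed, 24.2 percent higher and 16.2 percent lower in the mutant, with a median difference of 0.13. Over all probe sets these shares were 37.3, 21.6 and 15.7 percent. Array medians ranged from 6.63 to 6.73, and scaling the arrays to one median would change every difference by -0.08. A level was read against olfactory and vomeronasal receptor genes, which serve chemosensory neurons of the nose. The 95th percentile of their 1210 probe sets was 5.72, and 45 of the 53 members had a mean above it. Of 1194 receptor genes themselves, 198 were called higher and 0 lower, with a median difference of 0.17, and the part of this shift in the small rises of dim members such as *Pcdhb3*, *Cdh15* and *Pcdh1* was not tested. A mean at or below that 95th percentile is called within the range of the receptor genes. The 8 members there were *Cdh7*, *Cdh9*, *Cdh12*, *Cdh26*, *Pcdhb1*, *Pcdhb9*, *Pcdhb10* and *Pcdhb12*. *Meis2* itself was at 9.64 and 9.38 in wild type against 9.61 and 9.80 in the mutant, a difference that did not pass (limma adjusted p = 0.284). These arrays thus do not show a loss of *Meis2* RNA, and whether its probe set lies within the deletion was not tested. *Xist*, the RNA of the inactive X chromosome, was at 5.54 and 11.51 in wild type against 11.83 and 11.84 in the mutant. The Y-linked gene *Eif2s3y* was at 8.76 and 7.77 in wild type against 4.68 and 4.88 in the mutant, so the arrays also differ in sex-linked transcripts. Wild-type replicate 2 held Y-linked RNA with *Xist* low, and wild-type replicate 3 held both. Both mutant arrays held *Xist* with *Eif2s3y* low. Sex-linked RNA thus differs along with genotype, and the part of sex in the difference of any gene was not tested.

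Of the 53 members, 9 were higher in mutant cochleas, 6 were lower and 38 did not pass the test. That is 28.3 percent called, against 40.4 percent of all genes. No member reached a 2-fold difference, which 994 of all 19938 genes did. The classes were not alike in their counts. Among Cdh genes 3 of 21 passed (14.3 percent), all higher. Among non-clustered protocadherins 8 of 10 passed (80.0 percent), 4 in each direction. In the beta cluster 4 of 22 passed (18.2 percent), 2 in each direction. Above the range of the receptor genes lay all 10 non-clustered genes, 17 of the 21 Cdh genes and 18 of the 22 beta genes. The share over all genes was 73.7 percent. With probe sets within that range left out, 6671 of 23056 were higher and 5398 lower. The called shares of the classes were not tested against each other. With an array left out, the counts higher and lower were 1 and 0 of the Cdh genes, 2 and 0 of the non-clustered genes and 0 and 1 of the beta genes without *Meis2* mutant replicate 1, and 0 and 0 of the Cdh genes, 2 and 0 of the non-clustered genes and 0 and 1 of the beta genes without *Meis2* mutant replicate 2. They were 2 and 0 of the Cdh genes, 2 and 3 of the non-clustered genes and 1 and 3 of the beta genes without wild-type replicate 2, and 2 and 0 of the Cdh genes, 2 and 3 of the non-clustered genes and 1 and 2 of the beta genes without wild-type replicate 3. Calls over all probe sets also fell in each of these settings, in both directions, so a fall is not particular to the members. Median differences were 0.13 for Cdh genes, -0.01 for non-clustered protocadherins and -0.01 for the beta cluster, beside 0.13 over all genes. In a cochlea cut out whole, fewer cells of a type and less RNA per cell cannot be told apart, and this holds for each gene below.

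**Figure D1:**
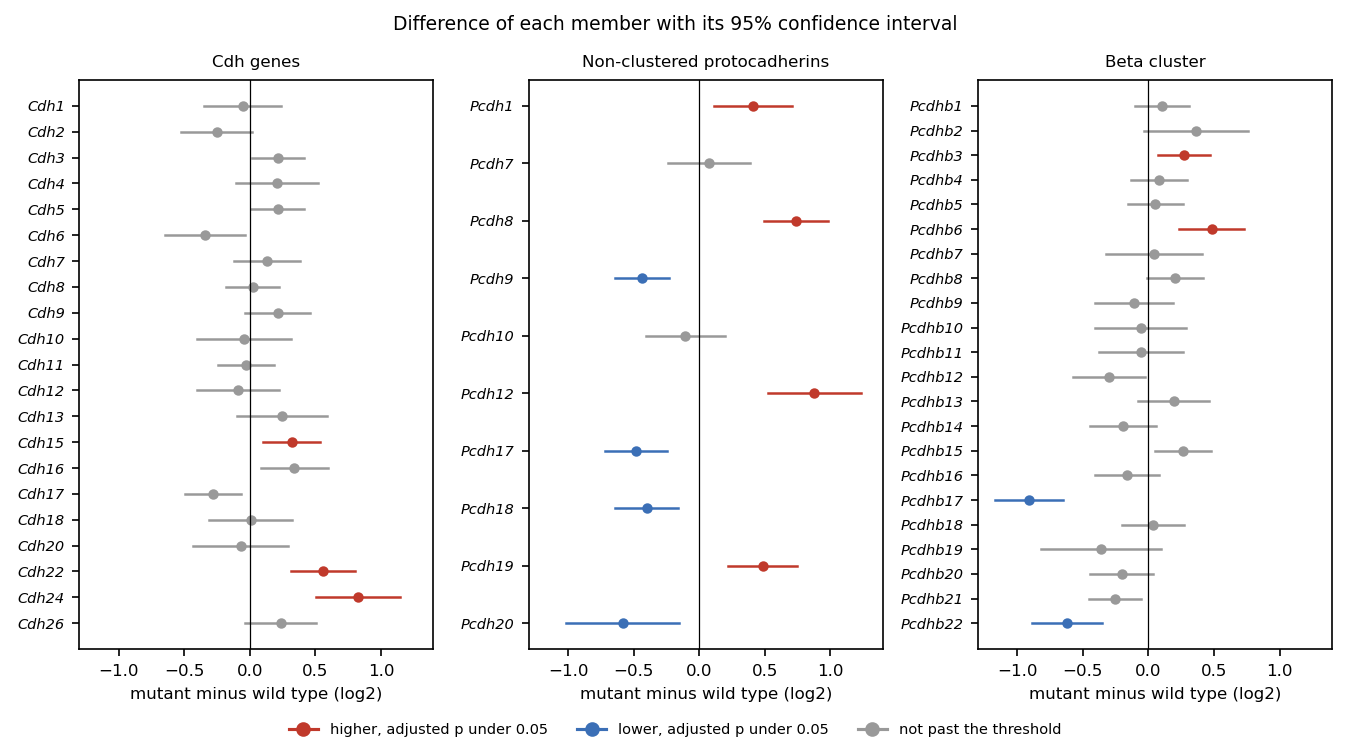
Mutant minus wild-type log2 signal (x axis) for each of the 53 members (y axis), with Cdh genes, non-clustered protocadherins and the beta cluster in panels of their own. Points are differences, bars are 95% confidence intervals, and color marks the genes past the threshold. Called members run from -0.91 (*Pcdhb17*) to 0.88 (*Pcdh12*), and 8 of the 10 non-clustered genes are colored.

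RefSeq promoter windows (GRCm38.p6) were at hand for 20 of the 53 members. Those of 6 called genes are shown, 3 of genes that rose and 3 of genes that fell, as the regions just before their transcripts. These are the 250 bases before the start, read 5′ to 3′, in lower case. Capitals mark TGACAG, the sequence that Meis proteins bind directly, and TGATNNAT or AGATNNAT, the form bound together with Pbx and Hox, where either strand holds them.
Higher in the mutant, *Cdh15* (chr8:122848124-122848373, plus strand): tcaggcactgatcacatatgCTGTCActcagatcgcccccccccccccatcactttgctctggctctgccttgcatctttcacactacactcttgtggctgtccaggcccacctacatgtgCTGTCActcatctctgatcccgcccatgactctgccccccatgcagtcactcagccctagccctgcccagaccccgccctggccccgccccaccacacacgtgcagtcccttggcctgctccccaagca
Higher in the mutant, *Cdh24* (chr14:54641365-54641614, minus strand): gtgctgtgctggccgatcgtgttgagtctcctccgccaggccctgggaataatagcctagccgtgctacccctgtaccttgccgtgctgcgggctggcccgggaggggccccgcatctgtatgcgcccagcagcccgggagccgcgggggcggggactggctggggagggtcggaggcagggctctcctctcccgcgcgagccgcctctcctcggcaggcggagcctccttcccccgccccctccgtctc
Higher in the mutant, *Pcdh8* (chr14:79771313-79771562, minus strand): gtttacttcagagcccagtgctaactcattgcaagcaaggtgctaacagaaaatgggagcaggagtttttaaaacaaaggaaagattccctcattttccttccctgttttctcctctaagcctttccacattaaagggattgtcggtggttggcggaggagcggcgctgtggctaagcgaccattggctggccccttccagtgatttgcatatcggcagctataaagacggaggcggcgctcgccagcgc
Lower in the mutant, *Pcdh9* (chr14:93890680-93890929, minus strand): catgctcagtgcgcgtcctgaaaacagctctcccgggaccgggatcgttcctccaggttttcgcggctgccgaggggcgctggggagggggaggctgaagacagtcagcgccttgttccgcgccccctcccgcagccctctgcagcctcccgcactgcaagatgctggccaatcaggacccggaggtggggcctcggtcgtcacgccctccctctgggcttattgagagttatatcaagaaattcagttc
Lower in the mutant, *Pcdh17* (chr14:84443313-84443562, plus strand): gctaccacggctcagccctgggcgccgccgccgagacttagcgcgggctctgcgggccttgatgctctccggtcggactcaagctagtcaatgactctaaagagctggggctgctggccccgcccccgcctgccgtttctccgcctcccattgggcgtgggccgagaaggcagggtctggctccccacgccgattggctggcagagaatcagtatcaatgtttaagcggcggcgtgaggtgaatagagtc
Lower in the mutant, *Pcdh18* (chr3:49757317-49757566, minus strand): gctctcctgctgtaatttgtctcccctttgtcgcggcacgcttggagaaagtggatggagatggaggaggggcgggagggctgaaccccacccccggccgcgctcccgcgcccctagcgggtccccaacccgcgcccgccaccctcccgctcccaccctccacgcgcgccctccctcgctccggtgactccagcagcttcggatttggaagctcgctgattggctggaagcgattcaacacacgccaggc
Of these windows, that of *Cdh15* alone held capitals, with 2 matches to TGACAG, both on the opposite strand (ctgtca). Over the 20 members, TGACAG was found for 4 (*Cdh6*, *Cdh7*, *Cdh15* and *Cdh20*), TGATNNAT for *Cdh9* and AGATNNAT for *Cdh10*, the last with 2 matches that do not overlap. Among all 32851 windows, 15.9 percent held TGACAG, 7.68 percent TGATNNAT and 8.17 percent AGATNNAT. Of the 9 called members with a window, the other 8 held none of these letters. The median share of G and C was 69.2 percent over 5 windows of 5 higher genes, 63.6 percent over 5 windows of 4 lower genes and 51.2 percent over 13 windows of 11 genes that were not called, against 52.4 percent over all windows.

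Type I cadherins, which make the main epithelial, neural and muscle junctions, were mostly below the threshold, and *Cdh15* was the one of 5 that passed. *Cdh15*, the M-cadherin of muscle precursors, was at 6.39 and 6.35 in wild type against 6.63 and 6.74 in the mutant. Both mutant values lie above both wild-type values, and the gene rose by 0.32 (SE 0.08, limma adjusted p = 0.0394). Markers of skeletal muscle were counted beside it. Of 12 measured, 10 were higher (83.3 percent, beside 24.2 percent of all genes) and 0 were lower. Their summed linear signal was 1021 to 1237 on the wild-type arrays and 1721 to 2472 on the mutant arrays. The 10 became 1 without wild-type replicate 2, 5 without wild-type replicate 3, 4 without *Meis2* mutant replicate 1 and 1 without *Meis2* mutant replicate 2. *Myf5*, *Mylpf* and *Chrna1*, which count among the 10, and *Tnnt1* of that list stayed within the range of the receptor genes. The part of muscle tissue in the *Cdh15* difference was not tested. The *Cdh15* call ended without any 1 of the 4 arrays (adjusted p from 0.0807 to 0.193), after median scaling (adjusted p = 0.097), with quantiles normalized again (adjusted p = 0.114) and with a trended prior (adjusted p = 0.0643).

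*Cdh1*, the E-cadherin of the duct epithelium, was at 9.62 and 9.85 in wild type against 9.62 and 9.74 in the mutant. The groups overlap, and the difference was -0.06 (95% confidence interval -0.35 to 0.24, limma adjusted p = 0.713). *Epcam*, another epithelial surface protein, was at 9.86 and 9.87 in wild type against 9.02 and 8.90 in the mutant and fell by 0.90 (limma adjusted p = 0.00392), while 2 of 10 epithelial markers were higher (1 with either *Meis2* mutant array left out), 1 was lower and the summed signal of the list was 6842 to 7026 on the wild-type arrays and 7424 to 7491 on the mutant arrays. *Cdh2*, the N-cadherin of neural and mesenchymal cells, was at 10.65 and 10.43 in wild type against 10.26 and 10.31 in the mutant, with both mutant arrays below both wild-type arrays and a difference of -0.25 (95% confidence interval -0.53 to 0.02, limma adjusted p = 0.116). *Cdh3*, or P-cadherin, was at 9.36 and 9.32 in wild type against 9.54 and 9.56 in the mutant and *Cdh4*, or R-cadherin, at 10.13 and 9.85 in wild type against 10.15 and 10.25 in the mutant. For both, the mutant arrays lie above the wild-type arrays without passing the test, with differences of 0.22 (limma adjusted p = 0.0855) and 0.21 (limma adjusted p = 0.23).

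Type II cadherins had 2 of 12 members past the threshold, both higher. *Cdh24*, a type II cadherin that binds catenins, was at 8.53 and 8.26 in wild type against 9.15 and 9.29 in the mutant. It had the largest difference of the Cdh genes, a rise of 0.83 or 1.77-fold (SE 0.12, limma adjusted p = 0.00952), which missed the threshold without *Meis2* mutant replicate 2 (adjusted p = 0.0583). Its other probe set was at 6.35 and 6.36 in wild type against 6.54 and 6.47 in the mutant, a difference of 0.15 (limma adjusted p = 0.201). The probe sets point the same way but differ in size, and their mean rose by 0.49 (adjusted p = 0.0158). *Cdh22*, a cadherin first described in pituitary and brain, was at 6.54 and 6.38 in wild type against 7.05 and 6.99 in the mutant and rose by 0.56 (SE 0.09, limma adjusted p = 0.0124). This call ended without *Meis2* mutant replicate 1 or 2 (adjusted p = 0.0713 and 0.0628).

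*Cdh5*, the VE-cadherin of endothelial junctions, was at 10.91 and 10.87 in wild type against 11.08 and 11.12 in the mutant. The groups do not overlap, and the difference was 0.21 (SE 0.08, limma adjusted p = 0.0913). It passed with quantiles normalized again, with a difference of 0.30 (adjusted p = 0.0423). *Cdh11*, the cadherin of mesenchyme and bone-forming cells, was at 12.13 and 12.20 in wild type against 12.10 and 12.17 in the mutant. Its groups overlap and its difference was -0.03 (95% confidence interval -0.24 to 0.18, limma adjusted p = 0.789). The markers of periotic mesenchyme gave 2 higher and 2 lower of 9, with summed signals of 18165 to 20741 on the wild-type arrays and 19839 to 22229 on the mutant arrays, and 1 lower with either *Meis2* mutant array left out. *Cdh6*, or K-cadherin, had a difference of -0.34 with no overlap (limma adjusted p = 0.0764). The other 7 type II genes (*Cdh7*, *Cdh8*, *Cdh9*, *Cdh10*, *Cdh12*, *Cdh18* and *Cdh20*) had differences from -0.09 to 0.21. In *Cdh18* both probe sets were below the threshold, at 0.01 and 0.13. Of the Cdh genes that are not classical, the GPI-anchored *Cdh13*, the kidney cadherin *Cdh16*, the liver and intestine cadherin *Cdh17* and *Cdh26*, 0 of 4 passed. *Cdh16* (difference 0.34) and *Cdh17* (difference -0.28) lay just outside the threshold at adjusted p = 0.051 and 0.0521 from limma. *Cdh17* passed as lower after median scaling, with quantiles normalized again and when dim probe sets were left out (adjusted p = 0.0262, 0.0173 and 0.048), and *Cdh16* passed as higher in that setting (adjusted p = 0.0429).

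**Figure D2:**
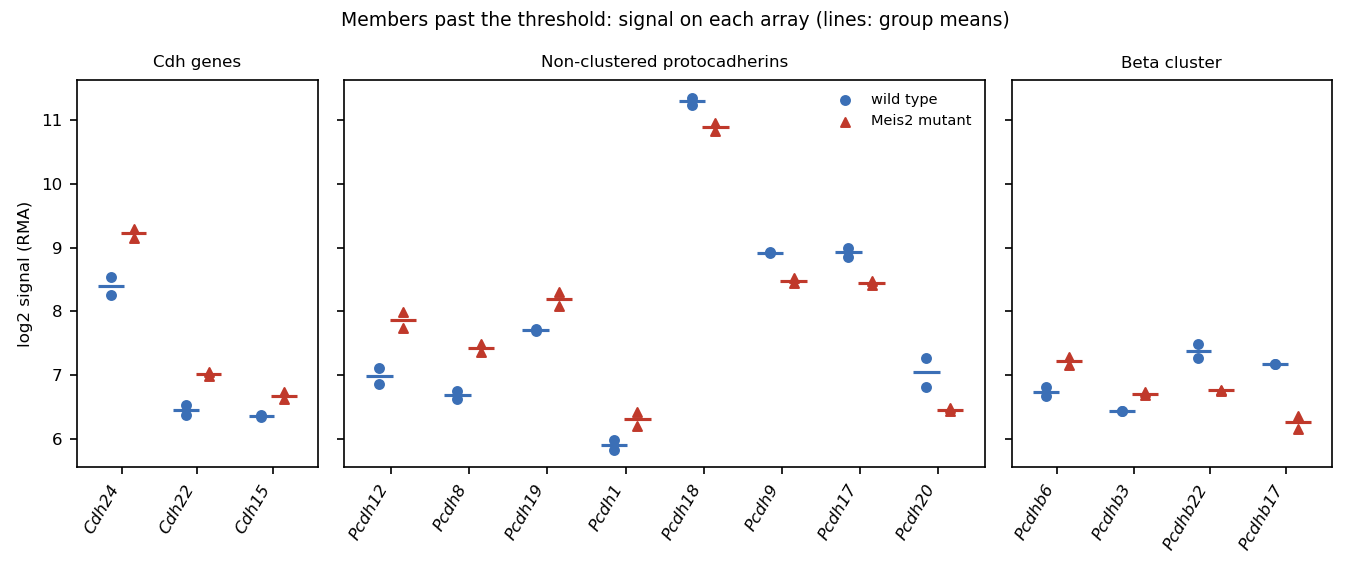
Log2 signal (y axis) on each array for the 15 members past the threshold (x axis), in panels by class. Circles are the 2 wild-type arrays, triangles the 2 mutant arrays and lines the group means. Heights are comparable within a gene and not between genes, and in each of the 15 genes the circles and triangles do not overlap. This does not set them apart. Of the members not called, 11 of 18 Cdh genes, 0 of 2 non-clustered genes and 12 of 18 beta genes had no overlap either. The share over all genes was not counted, so a lack of overlap, here or for a gene in the text, is only a description.

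Of the 10 non-clustered protocadherins, 4 rose and 4 fell, and *Pcdh7* and *Pcdh10* did not pass. The 4 that rose were *Pcdh12*, *Pcdh8*, *Pcdh19* and *Pcdh1*, and the 4 that fell were *Pcdh20*, *Pcdh17*, *Pcdh9* and *Pcdh18*. Both delta families hold genes of each direction. *Pcdh12*, a protocadherin of endothelial cells, was at 6.87 and 7.12 in wild type against 7.99 and 7.75 in the mutant. It rose by 0.88, or 1.84-fold (SE 0.14, limma adjusted p = 0.0103), the largest rise among all members, and reached adjusted p = 0.0506 without *Meis2* mutant replicate 1. Of 9 endothelial markers, 0 passed the threshold in either direction by limma and 0 lay within the range of the receptor genes, and their summed signal was 6975 to 7643 on the wild-type arrays and 7994 to 8526 on the mutant arrays. Without wild-type replicate 3, 1 was higher, and without wild-type replicate 2, 1 was lower. Their part in the *Pcdh12* difference was not tested.

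*Pcdh8*, a delta-2 protocadherin of the nervous system and the forming somites, was at 6.64 and 6.75 in wild type against 7.50 and 7.37 in the mutant. It rose by 0.74, or 1.67-fold (SE 0.09, limma adjusted p = 0.0067), and stayed past the threshold in each of the 9 alternatives run at this threshold, with adjusted p up to 0.0431. *Pcdh19*, the X-linked delta-2 gene known from epilepsy in girls, was at 7.73 and 7.70 in wild type against 8.09 and 8.30 in the mutant and rose by 0.48 (SE 0.10, limma adjusted p = 0.0226). *Xist* and Y-linked RNA also differed between the arrays, as given above. The part of sex-linked expression in this difference was not tested. Leaving out wild-type replicate 2, wild-type replicate 3 or *Meis2* mutant replicate 2 ended the call (adjusted p = 0.0554, 0.0657 and 0.108). *Pcdh1*, a delta-1 protocadherin also found in airway epithelium, was at 5.84 and 5.99 in wild type against 6.21 and 6.43 in the mutant and rose by 0.41 (SE 0.11, limma adjusted p = 0.045). The *Pcdh1* call ended without any 1 array (adjusted p from 0.0641 to 0.193), after median scaling, with quantiles normalized again and with a trended prior (adjusted p = 0.0879, 0.133 and 0.0543).

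The 4 decreases ranged from -0.58 to -0.40. *Pcdh9*, a delta-1 protocadherin of neurons, was at 8.91 and 8.92 in wild type against 8.45 and 8.52 in the mutant and fell by 0.43 (SE 0.08, limma adjusted p = 0.0153). Its other probe set was at 8.87 and 8.90 in wild type against 8.32 and 8.35 in the mutant and fell by 0.55 (limma adjusted p = 0.00819), so both readings of the gene go the same way. *Pcdh17*, a delta-2 protocadherin of axons and synapses, was at 8.998 and 8.85 in wild type against 8.47 and 8.42 in the mutant and fell by 0.48 (SE 0.09, limma adjusted p = 0.017). *Pcdh18*, another delta-2 gene, was at 11.34 and 11.23 in wild type against 10.83 and 10.95 in the mutant and fell by 0.40 (SE 0.09, limma adjusted p = 0.0288). *Pcdh20*, of neither delta family, was at 6.82 and 7.28 in wild type against 6.44 and 6.49 in the mutant. The wild-type arrays of *Pcdh20* lie far apart, both above the mutant arrays, and it fell by 0.58 (SE 0.17, limma adjusted p = 0.0475).

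With 1 array left out, differences ran from -0.47 to -0.40 for *Pcdh9*, -0.55 to -0.41 for *Pcdh17* and -0.46 to -0.34 for *Pcdh18*, and from -0.81 to -0.36 for *Pcdh20*. Without *Meis2* mutant replicate 1 or replicate 2, 0 of the 4 remained past the threshold, with adjusted p from 0.0733 to 0.16 without the first and from 0.0732 to 0.147 without the second. *Pcdh18* also missed it without wild-type replicate 2 (adjusted p = 0.084) and with quantiles normalized again (adjusted p = 0.0806), and *Pcdh20* without wild-type replicate 3 (difference -0.36, adjusted p = 0.0658). Ganglion neuron markers moved in the same arrays. Of 11, 7 were lower (63.6 percent, beside 16.2 percent of all genes) and 0 were higher past the threshold. Their summed signal was 9971 to 10011 on the wild-type arrays and 4870 to 5125 on the mutant arrays. The 7 became 3 without *Meis2* mutant replicate 2, and 6 to 9 with any other array left out. All 11 lay above the range of the receptor genes. Of 5 measured markers of Schwann and satellite glia, 1 was higher and 2 were lower, with summed signals of 9204 to 10332 on the wild-type arrays and 5473 to 5697 on the mutant arrays. The median difference of these 5 was 0.04, so the lower sum does not stand for the list as a whole. The 1 higher was lost without any 1 array, and the 2 lower became 1 with either *Meis2* mutant array left out. The part of neurons and glia in the fall of *Pcdh9*, *Pcdh17*, *Pcdh18* and *Pcdh20* was not tested.

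*Pcdh7*, a delta-1 gene, was at 9.14 and 8.85 in wild type against 9.06 and 9.09 in the mutant, a difference of 0.08 (95% confidence interval -0.23 to 0.39). *Pcdh10*, a delta-2 gene of axon growth, was at 8.81 and 8.83 in wild type against 8.85 and 8.57 in the mutant, a difference of -0.10 (95% confidence interval -0.41 to 0.20). In both genes the groups overlap. *Pcdh11x* is an X-linked delta-1 protocadherin outside the rule because of its name. It was at 9.20 and 8.91 in wild type against 8.66 and 8.56 in the mutant and fell by 0.45 (SE 0.13, limma adjusted p = 0.0453). As for *Pcdh19*, the part of sex-linked expression in this difference was not tested. The *Pcdh11x* call ended without *Meis2* mutant replicate 1 (adjusted p = 0.119), without *Meis2* mutant replicate 2 (adjusted p = 0.183), and without wild-type replicate 2 (adjusted p = 0.101). It also ended with quantiles normalized again (adjusted p = 0.104).

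The beta genes are single-exon neighbors on chromosome 18 that share much of their sequence, so probes of one may also bind transcripts of another. All 22 were measured by 1 probe set each. *Pcdhb17* was at 7.18 and 7.17 in wild type against 6.37 and 6.17 in the mutant. It fell by 0.91, or 1.88-fold (SE 0.10, limma adjusted p = 0.00494), the largest difference of all members in either direction, and stayed past the threshold in each of the 9 alternatives. *Pcdhb22* was at 7.28 and 7.50 in wild type against 6.76 and 6.77 in the mutant and fell by 0.62 (SE 0.10, limma adjusted p = 0.0123), and missed the threshold without *Meis2* mutant replicate 1 or 2 (adjusted p = 0.0643 and 0.0683). *Pcdhb6* rose, from 6.82 and 6.68 on the wild-type arrays to 7.17 and 7.29 on the mutant arrays, by 0.48 (SE 0.10, limma adjusted p = 0.0191). It missed the threshold when wild-type replicate 3, *Meis2* mutant replicate 1 or *Meis2* mutant replicate 2 was left out (adjusted p = 0.0585, 0.0632 and 0.106). *Pcdhb3* was at 6.44 and 6.45 in wild type against 6.74 and 6.69 in the mutant and rose by 0.27 (SE 0.08, limma adjusted p = 0.0493). The *Pcdhb3* call ended without any 1 array (adjusted p from 0.111 to 0.208), after median scaling, with quantiles normalized again and with a trended prior (adjusted p = 0.126, 0.149 and 0.0866). With quantiles normalized again its difference was 0.17.

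The other 18 beta genes had differences from -0.36 (*Pcdhb19*) to 0.36 (*Pcdhb2*). Just outside the threshold were *Pcdhb21* (difference -0.25), *Pcdhb15* (difference 0.26) and *Pcdhb12* (difference -0.30), at adjusted p = 0.0572, 0.0618 and 0.0802 from limma. *Pcdhb12* and *Pcdhb21* passed as lower after median scaling (adjusted p = 0.0442 and 0.0285) and with quantiles normalized again (adjusted p = 0.0378 and 0.0239). Set in their order along the chromosome, which is the order of their numbers, the differences were not spread evenly. In the first 8 genes, *Pcdhb1* to *Pcdhb8*, all differences were above 0, from 0.04 to 0.48. In the last 14, 3 were above 0 (*Pcdhb13*, *Pcdhb15* and *Pcdhb18*). The median was 0.08 over the first 11 genes and -0.20 over the last 11. After median scaling, 5 of the first 11 and 2 of the last 11 lay above 0, so the count above 0 rests on the scaling. This arrangement was noticed after the values were seen and is a description. The 22 points come from the same 4 arrays and neighboring genes share sequence.

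**Figure D3:**
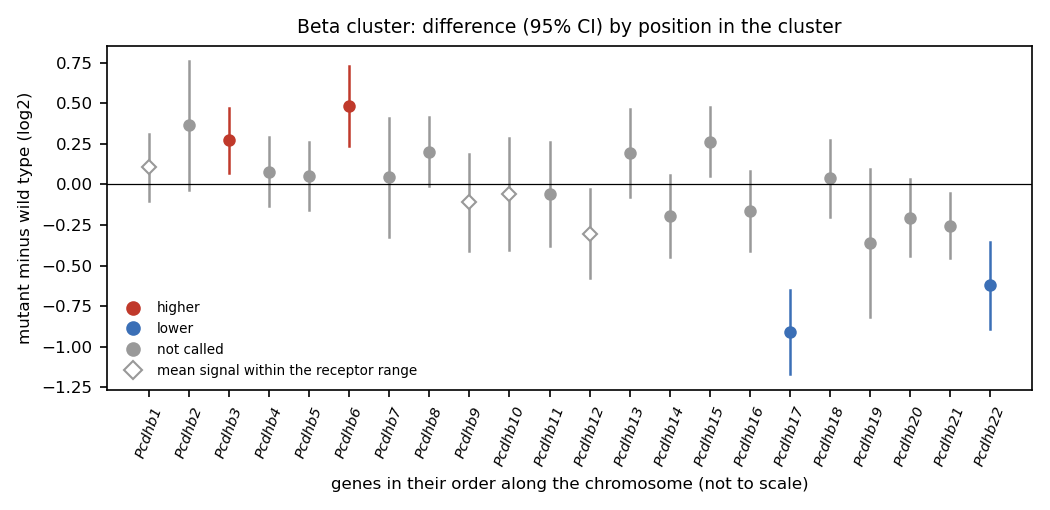
Mutant minus wild-type log2 signal (y axis) for the 22 beta genes in their order along the chromosome (x axis, not to scale). Points are differences, bars are 95% confidence intervals, and open diamonds are genes whose mean signal lies within the range of the receptor genes. The first 8 genes lie above 0, beside a median of 0.13 over all genes. After median scaling, 5 of the first 11 genes lie above 0. Both called decreases, *Pcdhb17* and *Pcdhb22*, lie in the later part. The arrangement was noticed after the values were seen.

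The choice of clustered protocadherin promoters is known to need the insulator protein CTCF, the cohesin ring that it stops, and silencing factors. Of 12 genes of this kind, 7 were lower in the mutant, 2 were higher and 3 did not pass (median difference -0.54). That is 75.0 percent called, beside 40.4 percent of all genes. All 12 lay above the range of the receptor genes, as did 73.7 percent of all genes, so the shares compare unlike levels. *Smc3*, a ring subunit of cohesin, was at 10.21 and 10.51 in wild type against 8.52 and 8.64 in the mutant and fell by 1.78 (SE 0.13, limma adjusted p = 0.00291). *Stag2* and *Smc1a*, also cohesin subunits, fell by 0.91 and 0.50. *Ctcf* was at 9.79 and 9.77 in wild type against 8.97 and 8.91 in the mutant and fell by 0.84 (SE 0.08, limma adjusted p = 0.00392). *Nipbl*, which loads cohesin, and *Wapl*, which releases it, fell by 0.89 and 0.81. *Smchd1*, a silencer of clustered protocadherins, fell by 0.58, and by 0.91 in the mean of its probe sets. The 2 higher were *Wiz* (0.66) and the DNA methyltransferase *Dnmt3b* (0.38). The *Dnmt3b* call ended after median scaling (adjusted p = 0.0573). The cohesin subunits *Rad21* and *Stag1* did not pass, nor did *Setdb1*. Calls that ended when 1 array was left out were *Dnmt3b*, *Smc1a* and *Smchd1* without *Meis2* mutant replicate 1 (adjusted p from 0.0567 to 0.133), *Dnmt3b*, *Smchd1* and *Wiz* without *Meis2* mutant replicate 2 (adjusted p from 0.0505 to 0.123), *Dnmt3b* and *Smc1a* without wild-type replicate 2 (adjusted p from 0.0743 to 0.084), and *Smc1a* without wild-type replicate 3 (adjusted p = 0.088). These differences stand beside those of the beta cluster, and their part in them was not tested. The alpha cluster was read by 1 probe set with several symbols, which names no gene here, and 0 probe sets carried a single alpha or gamma symbol.

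The catenins and other partners of classical cadherins had 2 of 17 measured genes higher and 2 lower. That is 23.5 percent called (median difference -0.05), beside 40.4 percent of all genes. *Ctnnb1*, the beta-catenin that all classical cadherins bind, was at 12.48 and 12.45 in wild type against 12.44 and 12.50 in the mutant. The groups overlap, and its difference was 0.01 (95% confidence interval -0.20 to 0.21). *Ctnna1*, the epithelial alpha-catenin, and *Ctnnd1*, which encodes p120 catenin, had differences of -0.25 and -0.23 that did not pass (adjusted p = 0.0666 and 0.0732 from limma). *Ctnna2*, the neuronal alpha-catenin, was at 8.002 and 8.09 in wild type against 7.42 and 7.54 in the mutant and fell by 0.57 (SE 0.09, limma adjusted p = 0.0107), and *Tjp1*, the tight junction scaffold ZO-1, fell by 0.64 (limma adjusted p = 0.00612). *Jup*, which encodes plakoglobin of desmosomes and adherens junctions, was at 9.93 and 9.82 in wild type against 10.44 and 10.56 in the mutant and rose by 0.63 (SE 0.09, limma adjusted p = 0.00893), and the adhesion receptor *Nectin1* rose by 0.66 (limma adjusted p = 0.0109). Calls that ended when 1 array was left out were *Ctnna2* without *Meis2* mutant replicate 1 (adjusted p = 0.064), and *Jup* and *Nectin1* without *Meis2* mutant replicate 2 (adjusted p from 0.06 to 0.0673).

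Of 25 other cadherin superfamily genes, 8 were higher and 2 were lower, 40.0 percent called beside 40.4 percent of all genes (median difference 0.26, and 5 higher and 3 lower after median scaling). *Celsr2*, a cadherin of planar cell polarity, was at 7.71 and 7.88 in wild type against 8.59 and 8.61 in the mutant and rose by 0.80 (SE 0.09, limma adjusted p = 0.00563). *Dchs1*, the large cadherin that binds Fat proteins, was at 10.71 and 10.42 in wild type against 11.45 and 11.46 in the mutant and rose by 0.89 (SE 0.12, limma adjusted p = 0.00735). *Clstn3*, a calsyntenin of synapses, and *Celsr3* rose by 0.41 and 0.47. The others higher were *Fat1*, *Fat2*, the receptor *Ret* and *Dsg4*, the last within the range of the receptor genes, and the 2 lower were the desmosomal *Dsc3* and *Pcdh11x*. Calls that ended when 1 array was left out were *Celsr3*, *Clstn3*, *Dsc3*, *Fat1*, *Fat2* and *Ret* without *Meis2* mutant replicate 1 (adjusted p from 0.0689 to 0.155), *Celsr3*, *Clstn3*, *Dsc3*, *Dsg4*, *Fat1*, *Fat2* and *Ret* without *Meis2* mutant replicate 2 (adjusted p from 0.0626 to 0.167), *Dsg4*, *Fat1* and *Ret* without wild-type replicate 2 (adjusted p from 0.0763 to 0.105), and *Celsr3*, *Clstn3*, *Dsc3*, *Dsg4*, *Fat1* and *Ret* without wild-type replicate 3 (adjusted p from 0.0544 to 0.116). The difference of *Dsg4* was 0.35 without *Meis2* mutant replicate 2, against 0.52 with all arrays. After median scaling the calls of *Dsg4*, *Fat1* and *Ret* ended (adjusted p = 0.0705, 0.0701 and 0.0748), and with quantiles normalized again those of *Dsg4* and *Ret* (adjusted p = 0.0833 and 0.0692). *Ret* also missed it with a trended prior (adjusted p = 0.0565).

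**Figure D4:**
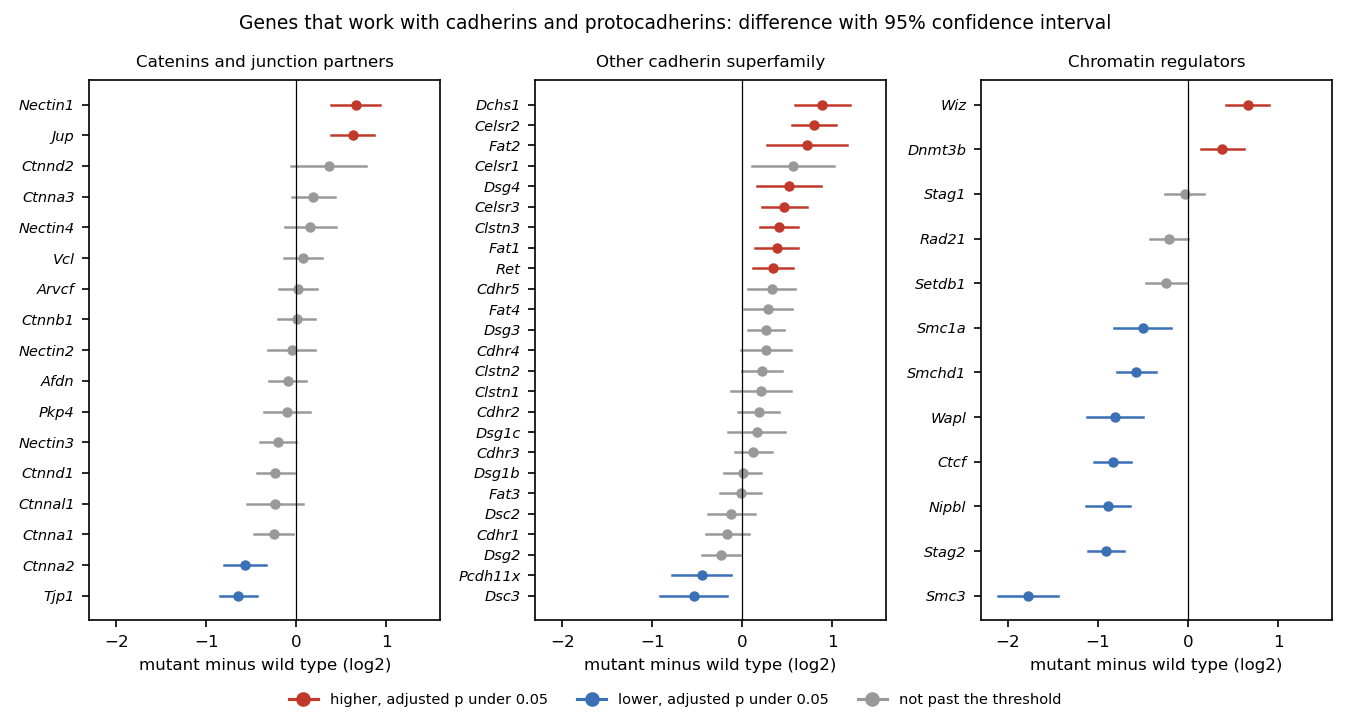
Mutant minus wild-type log2 signal (x axis) for catenins and junction partners, other cadherin superfamily genes and chromatin regulators of clustered protocadherins (y axis, ordered by difference). Points are differences, bars are 95% confidence intervals and color marks genes past the threshold. Chromatin regulators reach from -1.78 (*Smc3*) to 0.66 (*Wiz*), and *Ctnnb1* lies at 0.01.

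Transcription factors and splicing regulators that set the balance of epithelial and mesenchymal cadherins had 3 of 14 genes higher and 2 lower. That is 35.7 percent called, beside 40.4 percent of all genes. *Snai1*, a repressor of *Cdh1*, was at 9.18 and 9.01 in wild type against 10.58 and 10.62 in the mutant. It rose by 1.505, or 2.84-fold (SE 0.09, limma adjusted p = 0.00272). *Cdh1* had overlapping groups, as given above, and a link between these genes was not tested. *Zeb2* and *Twist1*, other repressors, fell by 0.86 and 0.70 (adjusted p = 0.00499 and 0.00907 from limma), and *Tcf3* and the epithelial splicing regulator *Esrp2* rose by 0.57 and 0.34, the latter not past the threshold after median scaling (adjusted p = 0.0607). Of 8 genes that process cadherins, 3 were higher and 1 was lower, 50.0 percent called beside 40.4 percent of all genes. *Aph1a* and *Psen2*, of the gamma-secretase that cuts cadherins within the membrane, rose by 1.08 and 0.62, and *Furin*, the convertase that removes the cadherin propeptide, rose by 0.96 (adjusted p = 0.00329, 0.00859 and 0.00468 from limma). *Adam10*, the protease that sheds the outer part of E-cadherin, N-cadherin and several protocadherins, was at 10.26 and 10.26 in wild type against 9.77 and 9.82 in the mutant and fell by 0.47 (SE 0.08, limma adjusted p = 0.0121). Calls that ended when 1 array was left out were *Adam10*, *Esrp2* and *Psen2* without *Meis2* mutant replicate 1 (adjusted p from 0.0534 to 0.125), *Adam10*, *Esrp2*, *Tcf3* and *Twist1* without *Meis2* mutant replicate 2 (adjusted p from 0.0578 to 0.132), *Esrp2* without wild-type replicate 2 (adjusted p = 0.0736), and *Esrp2* without wild-type replicate 3 (adjusted p = 0.0656).

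Markers of further cell types in the same arrays were counted beside these genes. For these and the marker lists above, the shares over all genes were 24.2 percent higher and 16.2 percent lower. The counts were not tested against these shares. In cartilage, 3 of 8 measured markers were higher and 0 lower, with summed signals of 27777 to 29576 on the wild-type arrays and 35401 to 35956 on the mutant arrays. Among hair cells, 3 of 7 measured markers were higher and 0 lower, with sums of 785 to 919 on the wild-type arrays and 1148 to 1198 on the mutant arrays. Among prosensory and supporting cells, 1 of 7 measured markers was higher and 3 lower, with sums of 4937 to 4970 on the wild-type arrays and 3980 to 4329 on the mutant arrays. In the central nervous system, 2 of 6 measured markers were higher and 0 lower, with *Nkx2-2* and *Olig2* within the range of the receptor genes and sums of 425 to 432 on the wild-type arrays and 516 to 538 on the mutant arrays. For erythroid cells, 1 of 2 measured markers was higher and 1 lower, with sums of 615 to 677 on the wild-type arrays and 519 to 520 on the mutant arrays. For macrophages, 1 of 6 measured markers was higher and 0 lower, with *Aif1* within the range of the receptor genes and sums of 941 to 1298 on the wild-type arrays and 1022 to 1027 on the mutant arrays. With either *Meis2* mutant array left out, the counts higher were 1 for cartilage, 1 for hair cells and 0 for the central nervous system. Without wild-type replicate 2 they were 1 for hair cells and 1 for the central nervous system, and 4 macrophage markers were lower. Without wild-type replicate 3 they were 2 for hair cells and 1 for the central nervous system. The prosensory marker higher was lost without any array but wild-type replicate 2, and 2 were lower without *Meis2* mutant replicate 2. The erythroid marker higher was lost without any array but *Meis2* mutant replicate 2. The part of these cell types in the differences of cadherins and protocadherins was not tested.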

How the data were processed

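Total RNA of E15 cochleas, 2 wild-type and 2 *Meis2* mutant samples, was purified (RNeasy Mini Kit), amplified and labeled (WT Expression Kit) and hybridized to Affymetrix Mouse Gene ST arrays. The authors made the log2 values with RMA, which includes background correction and normalization, and the submitters' notes name the build mm8, of which no coordinates are printed. The number of arrays limits the precision. limma 3.58.1 in R 4.3.3 was fitted to all 35556 probe sets without covariate or filter, with Benjamini-Hochberg adjustment over all of them and a threshold of 0.05. The methods name significance analysis of microarrays, which was not run here, since 4 arrays allow few relabelings. Probe sets were named through the platform annotation, and all 53 member symbols matched a current RefSeq record. A gene with several probe sets is given by the one whose mean was highest. Member and partner lists, the rule for named genes (up to 12 called genes with the smallest p per class, with *Cdh1*, *Cdh2*, *Cdh3*, *Cdh4*, *Cdh5*, *Cdh11* and *Cdh15*, and up to 4 of each partner list) and alternatives were chosen with earlier results of these data known. Other genes, among them *Epcam*, *Ctnnb1*, *Ctnna1*, *Ctnnd1*, *Pcdh11x* and the rest of the chromatin regulators, were named for their role or after their values were seen. The code was tested on simulated data with known differences. Alternatives were median scaling, repeated quantile normalization, a trended prior, leaving out dim probe sets, averaging the probe sets of each gene, a threshold of 0.1 and leaving out each array. With an array left out, the lone array of its group is assumed to vary like the other group.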

Additional observations from a re-analysis of the deposited data

How the results depend on the processing

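All 15 called members kept their direction in the 9 alternatives run at the same threshold. Most of these could not turn a sign. The groups of the 15 do not overlap, so leaving out 1 array keeps the direction. A trended prior and leaving out dim probe sets do not change a difference. Only median scaling, repeated quantile normalization and, for genes with several probe sets, averaging could turn one. Of the 15, *Pcdh8* and *Pcdhb17* also stayed past the threshold in each, and *Cdh24* and *Pcdh12* in 8 of 9. Counts of genes higher and lower that moved by over 1.5 times were, after median scaling, 2 and 1 for Cdh genes (as reported 3 and 0), 1 and 4 for beta genes (as reported 2 and 2), 2 and 5 for catenins and partners (as reported 2 and 2), 5 and 3 for other cadherin superfamily genes (as reported 8 and 2), 1 and 8 for chromatin regulators (as reported 2 and 7), 2 and 4 for regulators of the epithelial-mesenchymal balance (as reported 3 and 2), 5062 and 6439 for all probe sets (as reported 7695 and 5573). With quantiles normalized again they were 3 and 1 for Cdh genes (as reported 3 and 0), 1 and 4 for beta genes (as reported 2 and 2), with a trended prior 1 and 2 for beta genes (as reported 2 and 2), with dim probe sets left out 4 and 1 for Cdh genes (as reported 3 and 0) and at a threshold of 0.1 6 and 2 for Cdh genes (as reported 3 and 0), 3 and 4 for beta genes (as reported 2 and 2), 2 and 5 for catenins and partners (as reported 2 and 2), 13 and 3 for other cadherin superfamily genes (as reported 8 and 2), 4 and 4 for regulators of the epithelial-mesenchymal balance (as reported 3 and 2). Averaging the probe sets of each gene moved none of these counts.
Without 1 array the counts ranged as follows: Cdh genes 0 to 2 higher and 0 lower, non-clustered protocadherins 2 higher and 0 to 3 lower, beta genes 0 to 1 higher and 1 to 3 lower, catenins and partners 0 to 3 higher and 1 to 2 lower, other cadherin superfamily genes 2 to 6 higher and 0 to 1 lower, chromatin regulators 0 to 2 higher and 5 to 6 lower, processing genes 2 to 3 higher and 0 to 1 lower, regulators of the epithelial-mesenchymal balance 1 to 2 higher and 1 to 2 lower, all probe sets 1998 to 5470 higher and 2613 to 5425 lower. The lowest counts of all probe sets came without *Meis2* mutant replicate 2.
Among members below the threshold, the sign turned after median scaling for *Cdh8* -0.063, *Cdh18* -0.079, *Pcdh7* -0.0077, *Pcdhb4* -0.0053, *Pcdhb5* -0.032, *Pcdhb7* -0.040, *Pcdhb18* -0.047, and with quantiles normalized again for *Cdh10* 0.026, *Cdh11* 0.11, *Pcdhb1* -0.017, *Pcdhb4* -0.042, *Pcdhb5* -0.097, *Pcdhb7* -0.035. Without 1 array, differences that turned ranged from -0.17 to 0.060 for *Cdh1*, -0.19 to 0.11 for *Cdh10*, -0.068 to 0.0078 for *Cdh11*, -0.22 to 0.042 for *Cdh12*, -0.13 to 0.14 for *Cdh18*, -0.24 to 0.10 for *Cdh20*, -0.068 to 0.22 for *Pcdh7*, -0.24 to 0.033 for *Pcdh10*, -0.14 to 0.23 for *Pcdhb7*, -0.24 to 0.021 for *Pcdhb9*, -0.21 to 0.097 for *Pcdhb10*, -0.21 to 0.091 for *Pcdhb11*, -0.034 to 0.11 for *Pcdhb18* and -0.023 to 0.29 for the dimmer *Cdh18* probe set. The causes were not tested. No paired analysis was possible because the groups share only replicate number 2.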
